A study of Mus musculus with 6 samples.

Results

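The walls of blood vessels carry smooth muscle cells and, around capillaries, pericytes, which together are called mural cells. The 10 genes described here mark these cells: Acta2, Myh11, Tagln, Cnn1, Lmod1 and Mylk of the contractile apparatus, Rgs5, Notch3 and Cspg4 of the cell surface and its signalling, and the microRNA gene Mir145a. They were picked by name, with the comparison of the diets below already known, out of 25721 genes in the deposited comparison. RNA came from mouse tibial cortex, the compact shaft of the shin bone, after the bone ends were cut away and the marrow was rinsed out. All mice were wild type. At 8 weeks of age they were assigned at random to a control diet or to a diet with 0.2% adenine by weight, a dietary model of chronic kidney disease, and both groups were studied at 12 weeks after 4 weeks of feeding. Each diet has 3 libraries, called control 1 to 3 and adenine 1 to 3. The labels do not say that each library is a separate mouse, so errors and p-values measure the spread between these libraries, which may be technical.

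Smooth muscle cells contract when myosin light chain kinase, driven by calcium, phosphorylates the myosin light chain, which lets smooth muscle myosin pull on actin filaments. The genes of this machinery are switched on by the serum response factor SRF with its partners myocardin and the MRTF proteins, which bind a DNA element called the CArG box. Pericytes share part of this programme and depend on Notch signals and platelet-derived growth factor from the endothelium. Mature microRNA miR-145 supports the contractile state of smooth muscle. It has no poly(A) tail, so reads at Mir145a in libraries of poly(A) RNA do not measure the mature form.

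Promoters are shown here because SRF is the textbook regulator of these genes. The bases upstream of the RefSeq gene start (build GRCm38.p6) were found for 7 of the 10 genes, with Myh11, Tagln and Mir145a missing. A CArG box with all 6 middle letters A or T was found in 0 of the 7 windows of 250 bases and in 1.47% of all 32851 promoters. Allowing 1 of the 6 middle letters to differ, Acta2 alone of the 7 had it, at 84 and at 34 bases before the start, while 8.59% of all promoters had such a box. The element is palindromic, so both strands were read. The Acta2 window (chr19:34255374-34255623, minus strand) is printed whole with both boxes in capitals. Below it stand 60 bases of the promoters of Srf (chr17:46556200-46556259, minus strand) and Myl9 (chr2:156775278-156775337, plus strand), 2 genes of the same programme that hold a box of the strict form, again in capitals.
Acta2: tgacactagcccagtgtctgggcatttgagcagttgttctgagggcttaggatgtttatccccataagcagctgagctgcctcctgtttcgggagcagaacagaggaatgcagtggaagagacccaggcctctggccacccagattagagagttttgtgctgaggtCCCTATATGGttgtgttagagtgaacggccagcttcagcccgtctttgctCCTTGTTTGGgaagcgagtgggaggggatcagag
Srf: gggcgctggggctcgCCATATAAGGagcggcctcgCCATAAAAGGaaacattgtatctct
Myl9: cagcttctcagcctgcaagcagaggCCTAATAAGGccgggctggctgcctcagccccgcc
The motif TGGGAA or its reverse complement, a core bound by the Notch partner RBPJ, occurred in 1 of the 7 windows, that of Acta2, 27 bases before the start and overlapping the nearer box, and in 21.6% of all promoters. These matches describe letters and not binding.

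Libraries held 9977694 to 14598010 counted reads. Bone markers were strongly present, with Col1a1 at 5502 to 14838 CPM (counts scaled to library size, corrected by TMM) over the 6 libraries and Ibsp at 341 to 1855 CPM. Their level differed between libraries. The 8 bone cell markers summed to 10634, 9478 and 9058 CPM in the controls and 20783, 10898 and 25555 CPM on adenine, highest in adenine 1 and adenine 3. The mean log2 CPM of the same markers overlapped between the diets. The libraries also differed in transcripts of neighbouring tissue. The summed level of 11 skeletal muscle markers was 57768, 21409 and 92475 CPM in the control libraries and 3206, 80730 and 6655 CPM in the adenine libraries, with adenine 2 inside the range of the controls. The summed level of 8 kidney tubule markers was 258, 67.2 and 50.6 CPM in the controls and 1930, 830 and 110 CPM on adenine, highest in adenine 1.

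Among the thin filament genes, Acta2, which encodes smooth muscle alpha-actin (ENSMUSG00000035783, chromosome 19, 34218490 to 34232990 in the files' coordinates, of an unnamed build), was measured at 472, 505 and 481 CPM on the control diet. On adenine it was 189, 176 and 77.7 CPM. Every adenine library lay far below every control library, and the 3 controls stood within 1.07-fold of each other. The group means were 486 ± 17.5 and 148 ± 61.0 CPM (SD, n = 3 each), with a log2 fold change of -1.72 and a standard error of 0.38 in edgeR's quasi-likelihood fit. Because the genes were chosen with this comparison known, their fold changes are given as a description without a test. In bulk bone RNA, fewer mural cells and less of the transcript per cell cannot be told apart. Nor can a change in other cells that make the transcript, or in how much neighbouring tissue was sampled.

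Tagln encodes transgelin, an actin-binding protein of smooth muscle (chromosome 9, 45840917 to 45847356). It had 6.81, 5.28 and 6.08 CPM in the controls and 0.462, 2.41 and 0.676 CPM on adenine, and the groups did not overlap. Its counts were 95, 60 and 80 against 5, 23 and 9, so the log2 fold change of -2.37 (SE 0.68) rests on few adenine reads, and it was -3.39 without adenine 2. Its span in the files overlaps the antisense long noncoding gene Gm48529 over 56.3% and the end of Pcsk7 over 108 bases. In the GENCODE M21 annotation (GRCm38) 67.9% of its exonic bases lie under exons of these 2 genes, against 0% for Acta2, Myh11, Cnn1, Lmod1, Rgs5, Cspg4 and Mir145a, 6.85% for Mylk and 6.03% for Notch3. How strand entered the counting is not stated, so the level of Tagln, 2.86 FPKM (a level scaled by gene length and library size) against 208 FPKM for Acta2 in the controls, is uncertain.

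Cnn1 encodes calponin, which binds actin and restrains the myosin motor (chromosome 9, 22010512 to 22020926). It stood at 15.6, 21.4 and 9.04 CPM on control and 7.21, 6.72 and 0.976 CPM on adenine. Adenine 3 was lowest by far, and the lowest control lay just above the highest adenine library. The log2 fold change was -1.63 (SE 0.69). Lmod1 encodes leiomodin, which starts new actin filaments (chromosome 1, 135252545 to 135295803). It had 39.6, 33.4 and 38.7 CPM against 15.4, 23.7 and 3.90 CPM. The groups did not overlap, and the adenine libraries spread 6.08-fold against 1.19-fold in the controls (log2 fold change -1.38, SE 0.56).

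Of the motor genes, Myh11, the smooth muscle myosin heavy chain (chromosome 16, 14012399 to 14109236), was at 158, 261 and 202 CPM on control and 101, 101 and 18.1 CPM on adenine. The groups were apart, and adenine 3 was 5.56-fold below the highest adenine library. Its log2 fold change of -1.50 (SE 0.60) was -1.04 without adenine 3. Mylk, the light chain kinase, which also has a form in non-muscle cells (chromosome 16, 34565580 to 34822790), had 142, 192 and 238 CPM against 112, 143 and 107 CPM. Here adenine 2 lay just above control 1, so the groups overlapped, and the log2 fold change was -0.66 (SE 0.28).

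Of the 3 genes known for pericytes, Rgs5, a brake on G-protein signalling (chromosome 1, 169483070 to 169523382), was at 635, 500.1 and 795 CPM on control and 273, 491 and 331 CPM on adenine. Adenine 2 came within a few CPM of control 2, although no value crossed, and the log2 fold change was -0.82 (SE 0.36). Notch3, the Notch receptor of mural cells (chromosome 17, 32339794 to 32385826), had 69.1, 122 and 102 CPM against 41.1, 86.9 and 30.8 CPM. Adenine 2 exceeded control 1, and the log2 fold change of -0.89 (SE 0.42) was -1.44 without adenine 2. Cspg4, the NG2 proteoglycan of pericytes and some progenitor cells (chromosome 9, 56772317 to 56807154), had 29.5, 28.9 and 23.7 CPM against 14.9, 10.4 and 11.3 CPM. Its groups were clearly apart with little spread in either diet (log2 fold change -1.16, SE 0.25).

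Mir145a lies on chromosome 18 (61780896 to 61780965). Its 70-base gene had 31, 11 and 23 reads in the control libraries and 0 in each adenine library. Over the group, 3 reads would have been 0.0891 CPM, so the adenine level was at least 19.0-fold lower than the 1.69 CPM of the controls, a bound that covers counting error only and not the spread between libraries. The neighbouring Mir143 had 24 reads in control 3 and 0 in the other libraries. The long noncoding gene Carmn, known as the host of this microRNA pair, had 14, 13 and 65 reads on control and 4, 12 and 15 on adenine. Reads from it were thus present in every library. Its span in the files, 61782696 to 61798608, covers neither microRNA gene, so its counts do not include the stretch of Mir145a. With so few reads, differences between these 3 genes cannot be read from the data.

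**Figure D1:**
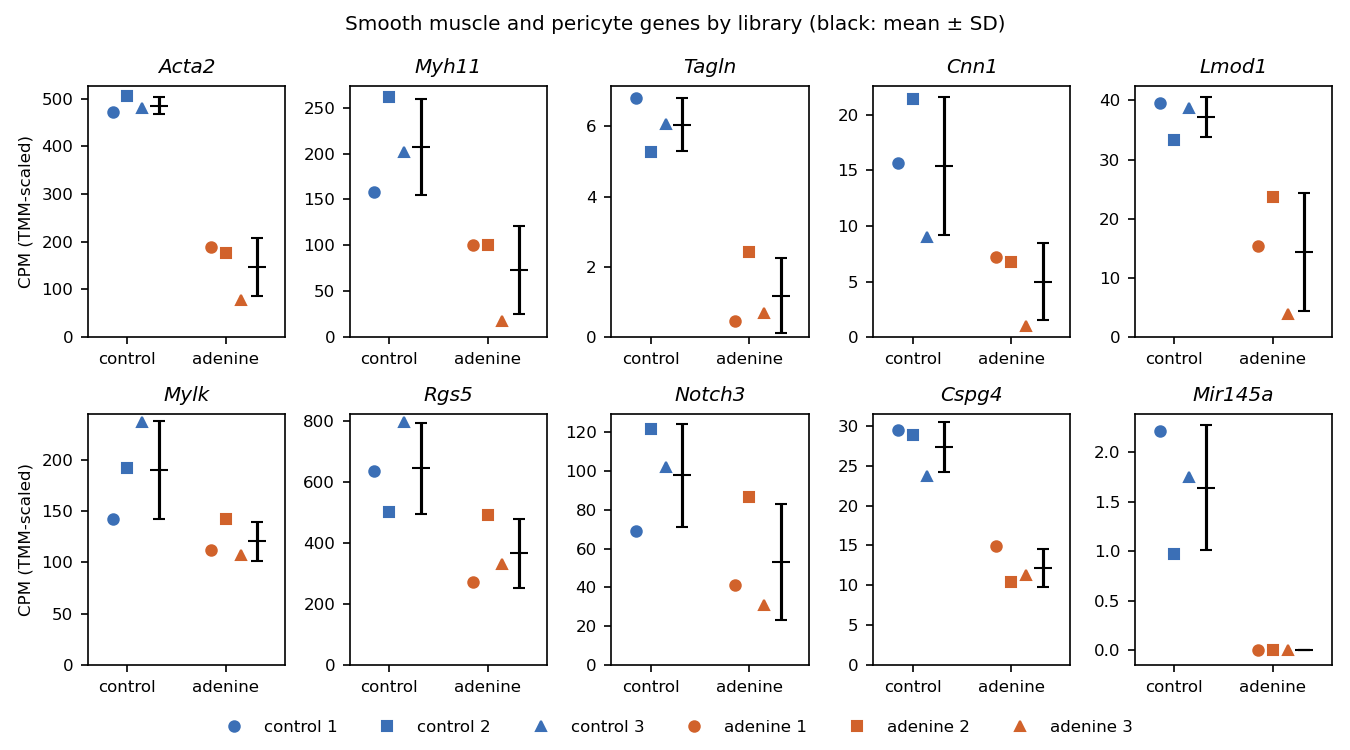
CPM of each of the 10 genes (vertical axes, linear, each with its own range) in the 3 control (blue) and 3 adenine (orange) libraries, symbols marking the library number and black bars the mean ± SD. Acta2 runs from 472 to 505 CPM on control and from 77.7 to 189 CPM on adenine, and adenine 2 is the highest adenine library for Lmod1, Rgs5 and Notch3.

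Counted over the 10 genes, 8 had adenine libraries all below control libraries, the exceptions being Mylk and Notch3, against 8.86% of the 15609 genes tested that were apart in this direction and 7.68% in the other. In edgeR's quasi-likelihood test of diet with Benjamini-Hochberg adjustment 0 of the 10 passed, as did 0 of all genes (0%), and 8 of 10 had an unadjusted p under 0.05 with a lower level, against 6.49% of all genes. The authors' deposited table listed 3 of the 10, Acta2, Tagln and Mir145a, with an adjusted p under 0.05 and a lower level, against 0.937% of its genes (0.467% were listed as higher), and the DESeq2 Wald test run here passed the same 3, against 1.29% of the genes it tested (0.642% as higher). Since the genes were chosen from this comparison, these counts carry no weight of their own. Tagln and Mir145a passed the filter on low counts only through the control group. The count of 8 by unadjusted p was 5 without control 1, 2 or 3 and 10 without adenine 2. The median log2 fold change was -1.44, also with Mir145a at its bound, against a median near 0 over all genes.

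Compared per length, the order of the genes differed between libraries. In the controls Acta2 (197 to 216 FPKM) stood above Rgs5 (103 to 168 FPKM) in every library, followed by Myh11 at 19.1 to 32.3, Mylk at 11.6 to 20.2, Notch3 at 7.85 to 14.1, Lmod1 at 7.92 to 9.40, Cnn1 at 3.17 to 7.33 and Cspg4 at 1.91 to 2.27 FPKM. Neighbours from Myh11 to Lmod1 in that order overlapped. Left out of the order are Tagln, at 2.49 to 3.15 FPKM in the controls, and Mir145a, at 13.0 to 29.2 FPKM. The level of Tagln is uncertain, and Mir145a is a very short gene with few reads. On adenine Rgs5, at 61.2 to 101 FPKM, and Acta2, at 34.2 to 87.8 FPKM, overlapped, and Rgs5 was the higher of the pair in adenine 2 and adenine 3. Adenine 1 kept the order listed for the controls. In adenine 3 Myh11, at 2.30 FPKM, also fell below Mylk at 9.19 and Notch3 at 3.68 FPKM. Cnn1, at 0.345 FPKM, was there below Cspg4 at 0.918 FPKM.

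Within the adenine group, adenine 3 was the lowest library for 6 of the 10 genes, and adenine 2 the highest for 6. In the controls no library was lowest for more than 4. After the group means were taken out, 31 of the 36 gene pairs among the 9 genes other than Mir145a deviated in the same sense over the 6 libraries (median Pearson r = 0.41, range -0.86 to 0.98), given as a description since all share the same libraries. The matching shares over all genes and gene pairs were not worked out, so whether these counts are particular to the 10 genes cannot be said.

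Skeletal and smooth muscle use different actins. In the GENCODE M21 transcripts, 0.352% of the 50-base stretches of the longest Acta2 transcript occur in another gene, as do 0.400% of those of Myh11; how the reads themselves were assigned was not tested. Acta1, the skeletal actin, ranged 4.70-fold within the controls and 24.0-fold within the adenine group, where Acta2 ranged 1.07-fold and 2.44-fold. Adenine 2, with Acta1 at 15665 CPM, as high as control 1 at 14467 CPM, had Acta2 at 176 CPM, below all controls. Control 2, with the lowest control level of Acta1 at 4412 CPM, had the highest Acta2. Adenine 2 was also the highest adenine library for 6 of the 10 genes. With the skeletal muscle level as a covariate, 4 of the 10 in place of 8 had an unadjusted p under 0.05 in edgeR. In that fit each of the 10 kept a negative log2 fold change, with a median of -1.40 against -1.44 without the covariate. The part of muscle RNA in the levels of the 10 genes was not tested. Actb and Actg1, the actins of non-muscle cells, had log2 fold changes of 0.38 and 0.11, while Actg2, the other smooth muscle actin, had -1.96 (SE 0.52; edgeR adjusted p = 0.281).

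**Figure D2:**
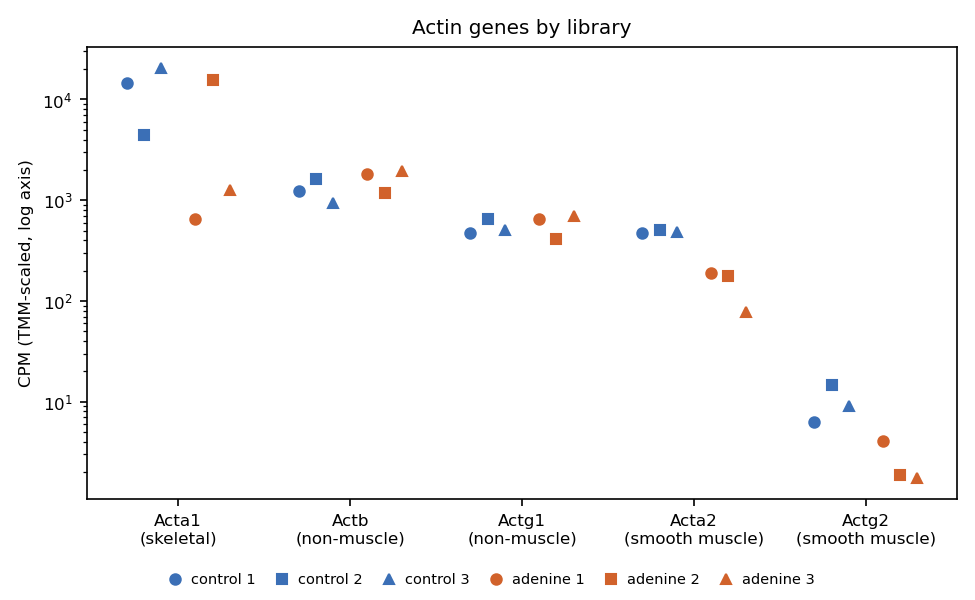
CPM (log axis) of 5 actin genes in the 6 libraries, control in blue and adenine in orange, symbols marking the library number. Acta1 spans 654 to 20739 CPM without separating the diets, and Acta2 separates them at 189 against 472 CPM.

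Non-muscle and striated cells use other members of the same protein families. Of 7 non-muscle counterparts, 5 had a positive log2 fold change and the median was 0.11, with Myh9 at -0.18, Myh10 at 0.30, Tagln2 at 0.06, Cnn2 at 0.30 and Cnn3 at -0.61. The direction of this median turned to -0.22 with the skeletal muscle level as a covariate, to -1.001 with the endothelial level and to -0.03 without adenine 3. Of 6 striated muscle counterparts, Acta1, Actc1, Mylk2, Lmod2 and Lmod3 had -1.17, -1.24, -0.71, -0.56 and -1.49, with standard errors of 1.09 to 1.30, and Mylk3 had 0.81. In each of these 2 sets 0 genes passed in edgeR (0 at an unadjusted p under 0.05) and 0 in DESeq2.

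Of 16 further genes of the contractile apparatus, all 16 had a negative log2 fold change (7805 of the 15609 genes tested did), with a median of -0.69. In edgeR 0 passed the adjusted test and 5 were lower at an unadjusted p under 0.05, while the DESeq2 Wald test passed 2 as lower, Ppp1r14a and Actg2. Ppp1r14a encodes CPI-17, which inhibits the phosphatase of the myosin light chain. It was measured at 10.5, 15.2 and 13.0 CPM on control and 2.87, 4.93 and 1.43 CPM on adenine, a log2 fold change of -2.07 (SE 0.49; edgeR adjusted p = 0.245). Myl9, the regulatory light chain whose promoter is shown above, had -0.80 (edgeR adjusted p = 0.418), and Smtn, smoothelin of contractile smooth muscle, -0.55 (0.454). Tpm1, Tpm2 and Des, which skeletal muscle also makes in quantity, had -1.21, -1.19 and -0.49 with standard errors of 0.89 to 1.06. Tpm1 was at 7229 CPM in the muscle-rich adenine 2 and at 842 and 1557 CPM in the other adenine libraries.

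Among 12 tested regulators of the smooth muscle programme, 10 had a negative log2 fold change, 3 of them at an unadjusted p under 0.05 in edgeR, and 0 passed the adjusted test. Klf4, a repressor of contractile genes in smooth muscle that endothelium also makes, was at 96.6, 69.3 and 113 CPM on control and 36.0, 28.7 and 38.5 CPM on adenine (log2 fold change -1.44, SE 0.25; edgeR adjusted p = 0.180). DESeq2 passed Klf4 alone of this list. Srf had 70.3, 53.4 and 83.2 CPM against 23.9, 56.3 and 34.9 CPM, overlapping through adenine 2 (log2 fold change -0.85, adjusted p = 0.454 in edgeR). Mrtfb, an SRF partner, had -0.88 (0.343 in edgeR) and Mrtfa -0.02. Myocd, myocardin, was at the limit of detection with 4, 26 and 35 reads on control and 10, 16 and 0 on adenine, and Gata6 had -1.80 (SE 0.86; edgeR adjusted p = 0.502) on 2 to 30 reads.

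Of 14 further pericyte markers, 12 had a negative log2 fold change, 5 were lower at an unadjusted p under 0.05 and 0 passed in edgeR, while DESeq2 passed 4 as lower. These 4 were Rgs4, a relative of Rgs5, at 37.7 ± 8.77 against 13.4 ± 5.03 CPM (SD, n = 3 each), Ndufa4l2, a mitochondrial protein (log2 fold change -1.49), the adhesion molecule Mcam (-1.32) and vitronectin, Vtn (-1.85). Their edgeR adjusted p ran from 0.227 to 0.264. Pdgfrb, the receptor that recruits pericytes, was at 97.5, 95.4 and 127 CPM on control and 73.6, 102 and 95.5 CPM on adenine, and its groups overlapped (log2 fold change -0.24, SE 0.24). Anpep, Foxs1, Higd1b and Steap4 had 0.06, -0.02, -0.08 and 0.26. Kcnj8 and Abcc9, which form a potassium channel of pericytes, had -1.20 (SE 0.37) and -0.78 (SE 0.74). Abcc9 is made by skeletal muscle too and was at 157 CPM in adenine 2 against 26.0 and 27.5 CPM in the other adenine libraries.

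Notch3 receives signals from ligands on endothelial cells and then turns on Hes and Hey genes. Of the 14 other genes of this pathway, 13 had a negative log2 fold change with a median of -1.02, 10 were apart and lower, and 9 were lower at an unadjusted p under 0.05 in edgeR. None of the 14 passed the edgeR adjusted test, and DESeq2 passed 1, Dll4. This ligand of arterial endothelium had 29.7, 26.3 and 39.1 CPM on control and 12.7, 11.8 and 12.2 CPM on adenine (log2 fold change -1.38, SE 0.24; edgeR adjusted p = 0.180). The ligands Jag1 and Jag2 had -0.97 and -1.06. The targets Hes1, Hey1, Hey2 and Heyl had -0.99, -1.17, -1.65 and -1.46, and in all 4 the groups were apart, with edgeR adjusted p from 0.281 to 0.368. Among the receptors, Notch1 and Notch4 had -0.64 and -0.39 beside -0.89 for Notch3, and Notch2 had 0.09.

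**Figure D3:**
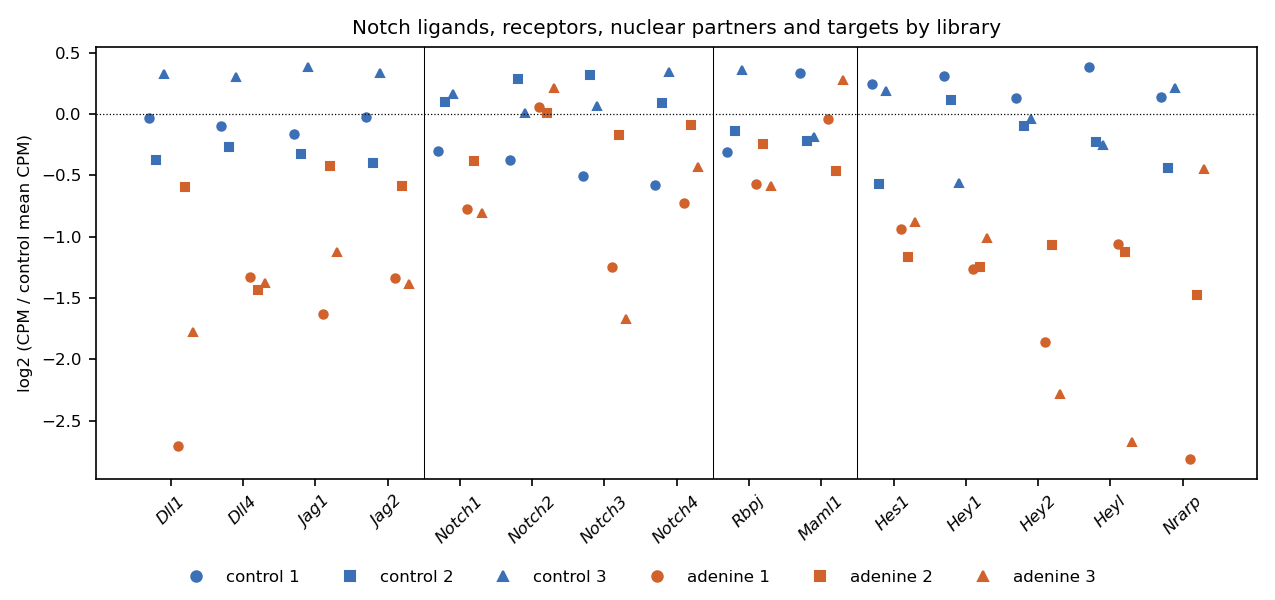
CPM of Notch3 and 14 other genes of its pathway in each library as log2 of the ratio to the control mean (0), grouped from left to right as ligands, receptors, nuclear partners and targets. The adenine libraries (orange) of Dll4, Hes1, Hey1, Hey2 and Heyl all lie below the controls (blue), and those of Notch2 and Maml1 do not.

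Of 14 genes for signals between endothelium and mural cells, 12 had a negative log2 fold change with a median of -0.54, 5 were lower and 1 higher at an unadjusted p under 0.05 (4.22% of all genes were higher), and 0 passed in edgeR or DESeq2. Pdgfb, the endothelial factor that draws in pericytes, had -0.17, and Pdgfa -0.85 (edgeR adjusted p = 0.245). Tek, the endothelial angiopoietin receptor, had -1.14 and Acvrl1, an endothelial receptor of the TGF-beta family, -0.79, while Tgfbr1, a TGF-beta receptor, had 0.96 with all adenine libraries above all controls (edgeR adjusted p = 0.334, 0.393 and 0.343 in that order).

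Of 20 tested genes that set vessel tone, 14 had a negative log2 fold change, 6 were lower at an unadjusted p under 0.05, 0 passed in edgeR and DESeq2 passed Gucy1a1 alone. Gucy1a1 encodes the alpha subunit of the enzyme that senses nitric oxide and makes cyclic GMP. It was at 55.0, 78.9 and 64.8 CPM on control and 30.2, 26.2 and 24.6 CPM on adenine, with the groups apart (log2 fold change -1.29, SE 0.22; edgeR adjusted p = 0.180). Its partner subunit Gucy1b1 had -0.50 (SE 0.31) with overlapping groups. Prkg1, the kinase that cyclic GMP activates, had -1.31, the endothelin receptor Ednra -0.81, and the adrenergic receptor Adra1b -2.14 on 3 to 34 reads, with edgeR adjusted p from 0.374 to 0.405.

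Endothelial markers were lower alongside the 10 genes. All 12 had a negative log2 fold change with a median of -0.92, 8 at an unadjusted p under 0.05 and 0 past the edgeR adjusted test, DESeq2 passing 5; Emcn, Cldn5, Kdr and Tie1 had -1.12, -1.27, -1.24 and -0.998. Their summed level was 1202 to 1353 CPM on control and 560.1 to 798 CPM on adenine. Over the adenine libraries, the mean log2 CPM of 9 of the 10 genes (without Mir145a), set against the average over all 6 libraries, came to -0.58, -0.11 and -1.53, and that of the endothelial markers -0.59, -0.11 and -0.70. Both were thus highest in adenine 2 and lowest in adenine 3. In the controls the values were 0.66, 0.83 and 0.74 for the 9 genes and 0.44, 0.36 and 0.60 for the endothelial markers. With the endothelial level as a covariate the median log2 fold change of the 10 genes was 0.00361, that is, near 0, and 5 of them, Tagln, Mylk, Lmod1, Notch3 and Rgs5, turned positive (0.11 to 0.92, with standard errors of 0.62 to 1.19). That level does not overlap between the diets, so diet and endothelial level cannot be told apart in this fit.

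Markers of other tissues are given beside these values, and their part in the result was not tested. Fibroblast markers had a median of -1.01 (9 of 10 negative, 5 lower at an unadjusted p under 0.05 in edgeR). They were led by Comp, Dpt, Tnmd and Clec3b at -2.24, -3.30, -2.71 and -3.69. Schwann cell markers had a median of -2.13, further below 0 than the -1.44 of the 10 genes. Among them 7 of 7 were negative and 6 lower by the same threshold, with Sox10 and Prx at -4.74 and -3.04. Of these 17 genes 0 passed in edgeR (adjusted p of the 6 named, 0.169 to 0.180) and 10 in DESeq2. Skeletal muscle markers had a median of -1.17 with overlapping groups for all 11 tested, Tnnc2 being nearly absent, and Mb, Pvalb, Myl1 and Tnni2 at -2.12, -1.75, -1.90 and -1.31. The summed level of the kidney tubule markers was highest in adenine 1, and Slc34a1, Slc22a6, Kap and Slc22a12 had 3.99, 5.07, 2.92 and 3.60 with standard errors of 1.07 to 1.84. In adenine 3, where the 9 genes were lowest, the kidney markers summed to 110 CPM. Without adenine 1, Acta2 had a log2 fold change of -1.94. The bone cell markers had a median of 0.46, with 5 positive and 3 negative, and Ibsp, Mepe, Dmp1 and Spp1 had 1.52, -2.43, -0.998 and 0.995.

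**Figure D4:**
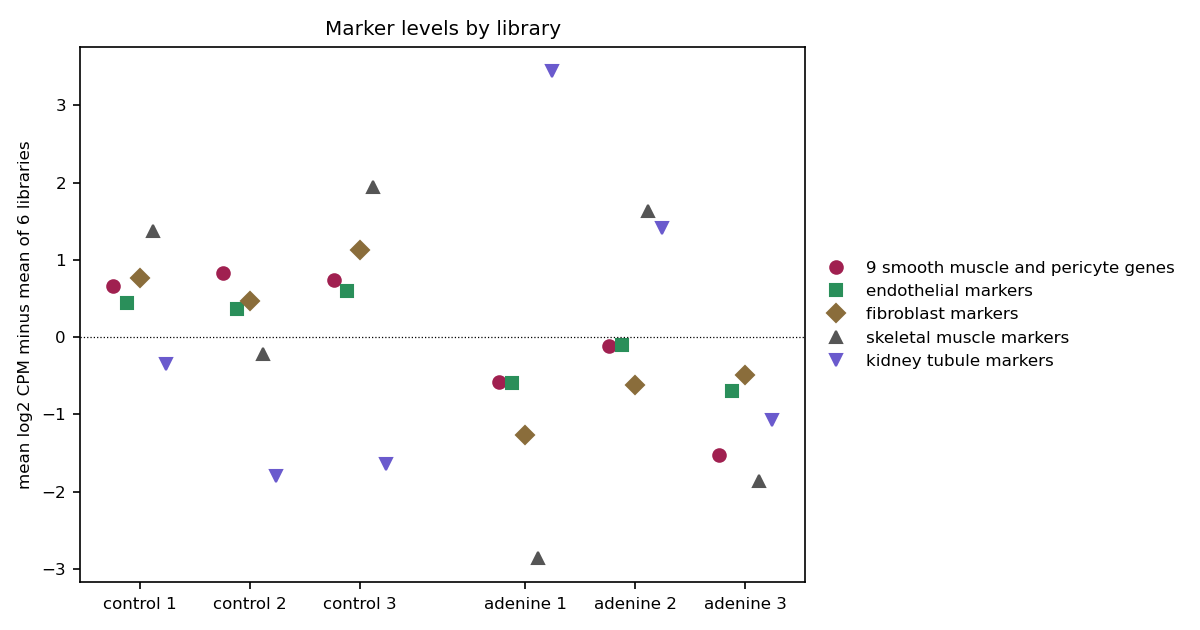
Mean log2 CPM of each marker set minus its mean over the 6 libraries (vertical axis), by library. The 9 smooth muscle and pericyte genes, the endothelial markers and the fibroblast markers are above 0 in all controls and below 0 in all adenine libraries. The Schwann cell markers, not drawn, separate the diets in the same way. The skeletal muscle markers do not, at 1.63 in adenine 2 and -0.22 in control 2.

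**Figure D5:**
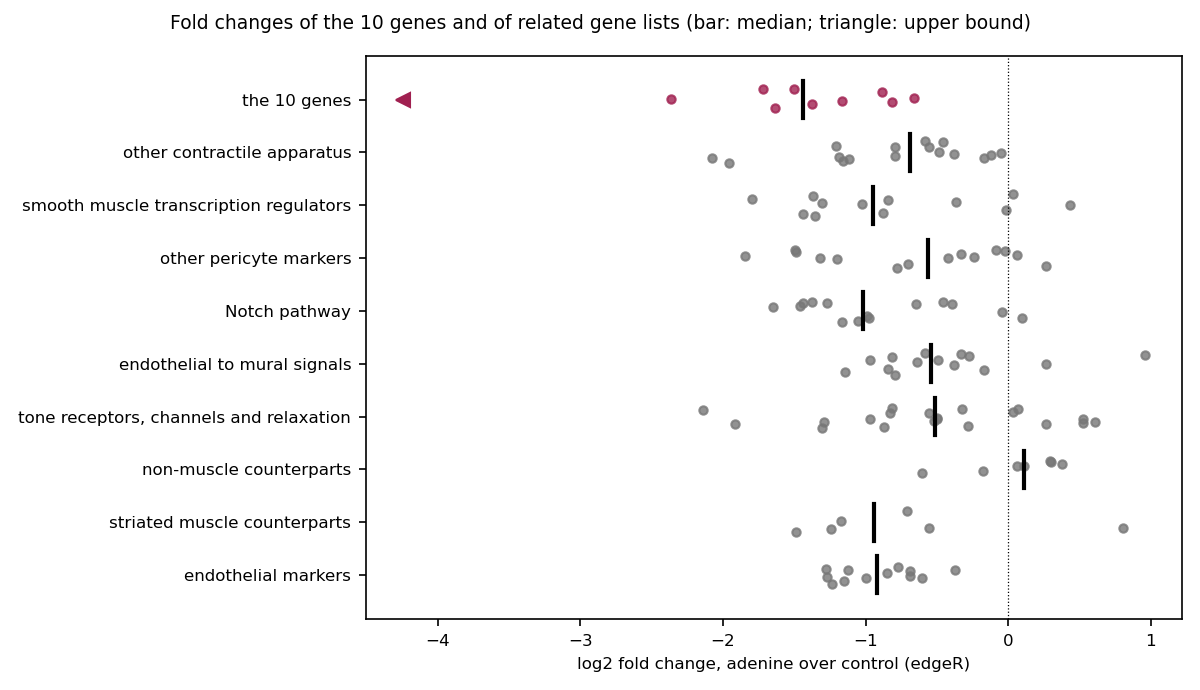
Log2 fold change of adenine over control from the edgeR fit (horizontal axis) for each tested gene (points) of the 10 genes and of 9 related sets, with black bars at the medians. Mir145a is drawn as a triangle at its bound of -4.24. Among the sets drawn, the medians run from -1.44 for the 10 genes to 0.11 for the non-muscle counterparts. The Schwann cell markers, not drawn here, had a lower median of -2.13.

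The genes most like the mean of the 9 genes over the 6 libraries, by Pearson r of log2 CPM among 12012 genes at 5 CPM or more, were Ppp1r14a (r = 0.996), Itga1 (0.992), Gbp5 (0.991), Gfod2 (0.991), Vwa1 (0.989), Tinagl1 (0.988), Bcam (0.987) and Cldn19 (0.987). The measure only orders the genes and was not tested. Itga1 encodes a collagen-binding integrin chain and Bcam a laminin receptor, while Vwa1 and Tinagl1 encode matrix proteins. Tinagl1, the most abundant, was at 130, 132 and 125 CPM on control and 58.2, 90.2 and 39.8 CPM on adenine. Ppp1r14a is also in the contractile list above.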

How the data were processed

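Messenger RNA of flushed, pulverised cortical bone was sequenced, per the labels' protocols, in 3 libraries per diet. Per the submitters' processing notes, featureCounts 1.5.0-p3, HISAT2 2.0.5, edgeR 3.22.5 and DESeq2 were used, in roles that are not stated; build, annotation and strand setting are likewise unstated, and the protocols describe both directional and non-directional libraries. The authors deposited counts per gene, a normalized signal, FPKM, and their own log2 fold changes with p-values. On the values, the signal equals the count over one size factor for each library (0.825 to 1.20). DESeq2, rerun here, came within 6.47e-05 of the deposited log2 fold changes and called 361 genes, the same number.

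The edgeR quasi-likelihood test (edgeR 4.0.16 in R 4.3.3, TMM, robust moderation, two-sided) used diet alone, on deposited counts of the 15609 genes that filterByExpr left at a minimum count of 10. Calls needed a Benjamini-Hochberg adjusted p under 0.05. Standard errors were derived from the F statistic (log2 fold change over its root). CPM use TMM-scaled library sizes, and log2 CPM a prior count of 2. For a group at 0 the floor was 3 counts over the group, for counting error only. Library totals were 9977694 to 14598010 counts, and the common biological coefficient of variation was 0.439.

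The 10 genes, the related lists, the alternatives and the naming rule were chosen with earlier results of these data known. Named were the 10 genes, the 4 genes with the smallest p in each list, both counterpart sets and the 8 most alike genes. Some genes that this rule names are not reported here. Other list members were named for their role after their values were seen. Promoters come from RefSeq (GRCm38.p6) and exon and transcript overlaps from GENCODE M21 (GRCm38); neither was mixed with the files' coordinates. On simulated data with 200 of 15609 genes altered in the diet comparison, edgeR found 0% of 2-fold and 32% of 4-fold changes with 4 false calls, and DESeq2 1.42.0 found 12% and 71% with 50 false calls. Other settings tried were DESeq2's size factors and its Wald test, limma-trend (limma 3.58.1) on log2(FPKM + 1) or log2(FPKM + 0.1) over genes at a mean of 1 FPKM or more, no filter, a minimum count of 50, no robust moderation, haemoglobin, mitochondrial and muscle genes removed, a replicate block, 3 tissue levels as covariates, and each library left out.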

Additional observations from a re-analysis of the deposited data

How the results depend on the processing

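Of 179 values for the 10 genes, 174 kept their negative sign. The 5 that changed came from the endothelial covariate alone. Of 269 list medians, 236 moved less than the list's mean level spreads between libraries of the same diet, which is a wide limit for muscle genes. Skeletal markers thus counted as unmoved at -2.53 with the replicate block, against -1.17 in the main fit. The settings reuse the same libraries and some hardly alter the fit, so these counts are no independent support. The number of genes past the adjusted threshold, 0 in edgeR, was 361 with the DESeq2 Wald test, 66 with no filter, 1 with limma on either log2(FPKM + 1) or log2(FPKM + 0.1), and 0 to 334 with a library left out, highest without adenine 2. The number at an unadjusted p under 0.05, 1671, was 699 with the kidney level as a covariate and 981 to 3243 with a library left out (lowest without adenine 1, highest without adenine 2). For the 10 genes this count, 8, was 4 with the skeletal muscle covariate, 1 with the endothelial covariate and 5 to 10 with a library left out.

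The labels do not say whether libraries with the same replicate number are paired. Over the genes tested, their deviations from the group means correlated at -0.04, -0.45 and -0.17. These values cannot settle pairing, since differences in neighbouring tissue between libraries also enter them. With the replicate block 986 genes had an unadjusted p under 0.05 and the 10 genes a median of -1.74, while medians moved to -0.996 for pericyte markers and -2.47 for striated counterparts. With limma on log2(FPKM + 1), medians were -0.80 for the Notch pathway and -0.35 for tone genes, and with log2(FPKM + 0.1) -0.88 for pericyte markers.

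With the skeletal muscle covariate, the median of the 10 genes was -1.40. Medians were -0.44 for regulators, -0.24 for pericyte markers and -0.73 for the Notch pathway. They turned to -0.22 for non-muscle counterparts and -0.38 for bone markers. With the kidney covariate they were -2.43 for the 10 genes, -0.36 for endothelial to mural signals and -0.38 for tone genes, and turned to -0.49 for kidney markers. With the endothelial covariate they were -0.13 for contractile genes, -0.21 for the Notch pathway, -0.26 for signals and -0.28 for tone genes. They turned to 0.00361 for the 10 genes, 0.29 for regulators, 0.12 for pericyte markers, -1.001 for non-muscle and 4.42 for striated counterparts, and 0.0236, 3.71 and -1.87 for endothelial, skeletal and bone markers. Tagln, Mylk, Lmod1, Notch3 and Rgs5 turned to 0.26, 0.11, 0.92, 0.82 and 0.43. The endothelial level separates the diets, and the cause of the other shifts was not tested.

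With a library left out, medians ranged from -1.82 to -1.08 for the 10 genes, -0.94 to -0.23 for pericyte markers, -0.66 to -0.40 for tone genes, -3.53 to -0.42 for striated counterparts, -3.57 to -0.64 for skeletal markers and -0.03 to 0.31 for non-muscle counterparts. Mir145a gave no value at a minimum count of 50, and the skeletal markers none with muscle genes removed. With few reads for Tagln, Mir145a, Myocd, Gata6 and Adra1b, depth limits what their values show.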
